A study of Mus musculus with 6 samples.

Results

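The T cell receptor signaling genes described here are 33 genes that carry, shape or limit the signal of the T cell receptor, and their accessible chromatin was taken from ATAC-seq of splenic regulatory T cells (Tregs). In ATAC-seq a transposase cuts open DNA, and sites where many fragments pile up are called as accessible regions. Regions were assigned to a gene when they overlapped its GENCODE vM21 gene body extended by 10 kb on each side. By this rule 735 of 100771 regions of the control list and 675 of 94499 regions of the knockout list belonged to the 33 genes. Merging overlapping regions of both lists gave 767 regions, of which 8 lay in the windows of more than 1 of the genes.

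The controls were CREBfl/fl mice, which carry floxed CREB and no Cre, and the other group were Foxp3creCREBfl/fl mice, in which Cre is driven by Foxp3 and deletes CREB in Foxp3-expressing cells. Both groups therefore carried the floxed allele, but only the second carried the Foxp3cre allele, so that effects of the Cre allele and of CREB loss cannot be told apart. Mice were 6 to 12 weeks old, and the labels name 3 libraries per group, called WT and Foxp3_KO there. The processed data are 1 list of accessible regions per group, named the WT list and the KO list below, with no list per library. No difference between mice could therefore be tested, no p-value is given, and every interval covers counting error only.

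T cell receptor signaling starts when Lck phosphorylates the CD3 and zeta chains of the receptor, to which ZAP-70 then binds. ZAP-70 phosphorylates the scaffolds LAT and SLP-76, which gather phospholipase C-gamma-1 and exchange factors for small GTPases and so start calcium, diacylglycerol and NF-kB signals. Phosphatases, the kinase Csk, ubiquitin ligases and diacylglycerol kinases limit the signal. Tregs depend on their receptor for suppressive function, and CREB is one of the transcription factors that become active downstream of it. CREB binds the cAMP response element (CRE), whose full palindrome is TGACGTCA and whose half-site is TGACG.

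The number of fragments over the summit of each region, here called the pileup, was worked out from each region's fold and p-value as the authors gave them. The genome background was 8.44 fragments in the WT list and 5.09 in the KO list, so the WT list was 1.66 times as deep. Levels are given as pileup over the genome background of the list. Ratios are the log2 of the KO level over the WT level, relative to the median of all 82006 shared regions, which was 0.15; without this shift each ratio would be 0.15 higher. A shared region was called lower or higher when its relative ratio was at least 1.5-fold from 0 and its exact binomial 95% interval did not include 0. Promoters of the Treg genes Foxp3, Il2ra, Ctla4 and Ikzf2 were at 74.2 to 116 times background in the WT list and at 75.3 to 121 times in the KO list. Their relative ratios were all below 0, from -0.28 at Ctla4 (-0.44 to -0.13) to -0.09 at Foxp3 (-0.24 to 0.06). Only the Ctla4 interval did not include 0, and none was called. Of the T cell markers Cd3e, Cd4, Bcl11b and Trac, no promoter region was found for Trac in either list. Only start sites that the annotation types as protein-coding were searched, so this does not show that Trac was closed. Of the B cell markers, Cd79a had no promoter region in either list, Ms4a1 was at 3.08 times background in the WT list and 7.47 times in the KO list, and Pax5 was at 19.8 and 26.1 times. The summed levels of the other marker sets in the WT list and the KO list were 46.0 and 58.8 for 4 myeloid genes with Lyz2 and Csf1r at 0, 19.8 and 17.5 for 2 CD8 genes with Cd8a at 0, 18.9 in each list for 3 NK cell genes with Ncr1 at 0, and 121 and 122 for 3 erythroid genes, all of them present. Of the erythroid promoters, Gata1 had a relative ratio of -0.63 (-0.98 to -0.29), past the threshold for a lower call, while those of Klf1 (0.02, -0.17 to 0.21) and Epor (-0.30, -0.63 to 0.03) had intervals that included 0. The part of such cells in the values below was not tested, and a change per cell cannot be told apart from a changed mix of cells. The Creb1 promoter was at 126 and 149 times background, which does not check the deletion.

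Sequences are shown for the regions with a full CRE, because this is the element of the deleted factor, and for called regions with a CRE half-site or an AP-1 word near the summit. The full CRE of a Ptpn22 region overlaps an annotated exon and is not shown. All are from GRCm38, plus strand, and hold no annotated exon. The first 4 hold a full CRE, in capitals. None of these regions was called lower or higher.
Zap70, promoter, chr1:36761755-36761797: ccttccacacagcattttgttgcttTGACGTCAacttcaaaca
Prkcq, intron, chr2:11212112-11212169: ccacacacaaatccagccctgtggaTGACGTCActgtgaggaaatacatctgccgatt
Ubash3b, intron, chr9:41084209-41084266: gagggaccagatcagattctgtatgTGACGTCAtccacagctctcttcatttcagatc
Cd5, upstream, chr19:10747344-10747401: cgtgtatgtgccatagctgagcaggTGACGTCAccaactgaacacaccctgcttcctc

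The next 5 sequences are from regions called lower in the KO list with the half-site within 100 bp of the summit, a search that can reach past the ends of a short region. The Ubash3b half-site lies just past the end of its called region. The half-site is in capitals and reads CGTCA where it lies on the minus strand. The Ubash3b stretch is marked as repeat over all of its 85 bases in the reference genome, and 27 of the 85 bases of the Prkcq stretch are.
Lck, intron, chr4:129570183-129570267: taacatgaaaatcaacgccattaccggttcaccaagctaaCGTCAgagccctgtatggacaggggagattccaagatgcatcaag
Prkcq, intron, chr2:11205798-11205882: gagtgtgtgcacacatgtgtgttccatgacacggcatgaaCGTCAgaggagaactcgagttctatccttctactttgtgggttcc
Ubash3a, intron, chr17:31210410-31210494: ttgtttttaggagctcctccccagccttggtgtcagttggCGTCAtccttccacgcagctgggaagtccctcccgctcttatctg
Ubash3b, intron, chr9:41065052-41065136: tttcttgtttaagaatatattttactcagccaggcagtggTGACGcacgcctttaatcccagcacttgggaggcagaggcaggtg
Cd5, intron, chr19:10729923-10730007: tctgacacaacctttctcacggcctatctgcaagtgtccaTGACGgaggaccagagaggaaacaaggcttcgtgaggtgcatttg

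The last 2 are from regions called higher in the KO list with an AP-1 word, TGANTCA, within 100 bp of the summit, in capitals. The Grap2 word begins just before the start of its called region.
Grap2, intron, chr15:80623178-80623264: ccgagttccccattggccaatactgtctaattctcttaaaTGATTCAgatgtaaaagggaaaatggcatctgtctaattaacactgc
Themis, intron, chr10:28696575-28696661: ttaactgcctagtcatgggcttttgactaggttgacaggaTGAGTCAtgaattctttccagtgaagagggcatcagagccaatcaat

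All 33 genes had accessible regions in both lists. The number of WT regions in a gene's window ran from 5 at Bcl10 to 70 at Fyn, with a median of 19, against a median of 3 over 21755 protein-coding genes. For 25 of the 33 genes the number was above that of 90% of protein-coding genes. The windows differed in length, since the gene bodies ran from 5.55 kb at Cd3d to 215 kb at Themis. Of the shared regions away from any promoter, 79.6% lay in introns. The background that the caller estimated locally around the regions of these genes was also high, with a median of 3.57 times the genome background against 1.47 over all WT regions.

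Of the 735 WT regions, 128 had no counterpart in the KO list and are called WT-only (17.4%, Wilson 95% interval 14.8 to 20.3), beside 16.4% of all WT regions. Of the 675 KO regions, 40 were KO-only (5.93%, 4.38 to 7.97), beside 6.61% of all KO regions. Both shares were thus near those of the whole lists. Among regions within 1 kb of a start site, 15 of 117 WT regions were WT-only (12.8%, beside 10.3% of all promoter regions) and 4 of 104 KO regions were KO-only (3.85%, beside 3.9%). Among the other regions the shares were 18.3% of 618 WT regions, beside 18%, and 6.3% of 571 KO regions, beside 7.37%. WT-only is not the same as closed in the KO list: 64 of the 128 WT-only regions lay within 500 bp of a KO region, as did 13 of the 16 with a WT pileup of at least 100. Of the 40 KO-only regions, 18 lay within 500 bp of a WT region. At the median ratio of the lists, 0 of the 128 WT-only regions had an expected KO pileup under 14, the lowest KO pileup called at the genome background, but most regions had a higher local background. The median pileup was 49.5 in the WT-only regions of these genes and 32.0 in their KO-only regions.

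**Figure D1:**
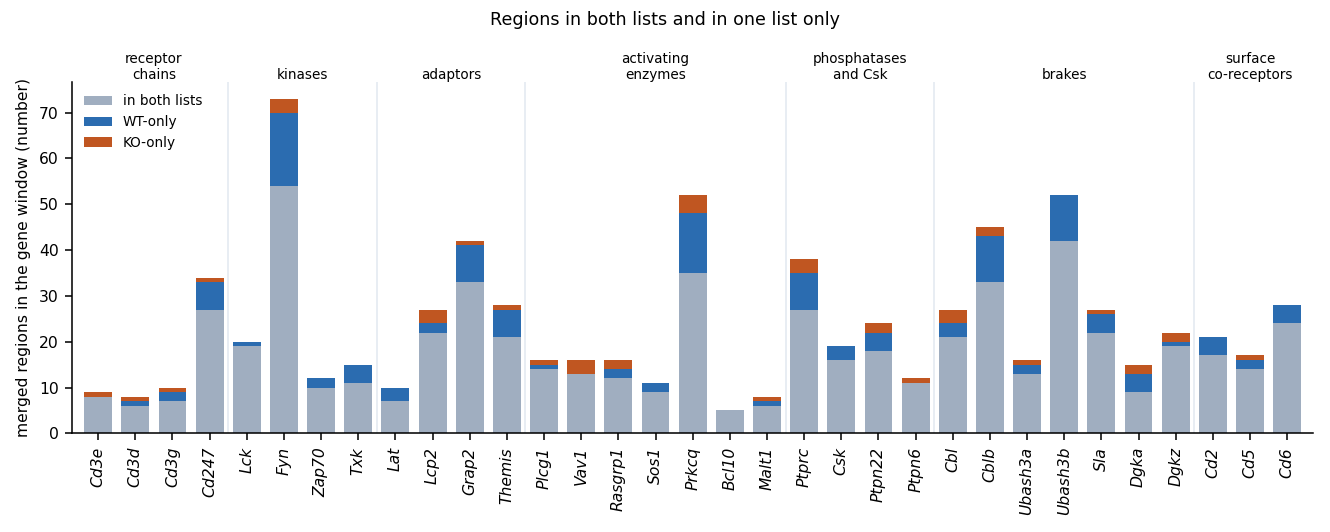
Merged regions in the window of each gene (number), split into those in both lists, WT-only and KO-only, with genes ordered by role. Fyn, Prkcq and Ubash3b had the most regions, and every gene had most of its regions in both lists.

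The 599 shared regions of the 33 genes had a median relative ratio of -0.02 and an SD of 0.27, where the SD over all shared regions was 0.30. Of these, 11 were called lower in the KO list (1.84%, beside 2.64% of all shared regions) and 6 were called higher (1.0%, beside 1.98%). All of the lower regions and 5 of the higher ones were among the 501 regions away from promoters (2.2%, beside 3.03% of all such regions, and 0.998%, beside 2.31%). The shares of called regions were thus no larger than over the whole lists. The 11 lower regions belonged to 7 genes: Lck, Txk, Prkcq, Cbl, Ubash3a, Ubash3b and Cd5. The 6 higher regions belonged to Themis, Grap2 and Dgka. The medians of single genes ran from -0.23 at Cd5 to 0.25 at Bcl10, which had 5 shared regions. None of the genes had regions called in both directions, and 23 of the 33 had none called. With the authors' fold, which sets each pileup against its local background, 5 of the 11 lower regions were still called (in Prkcq, Cbl and Cd5, and both in the Ubash3b introns), as were 4 of the 6 higher ones (in Grap2 and Dgka, and 2 in Themis). Without the shift to the median only the regions in Cbl and the stronger one in Cd5 were still called lower, and 23 of the 599 regions were called higher. Of all shared regions 1.15% were then called lower and 4.7% higher.

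**Figure D2:**
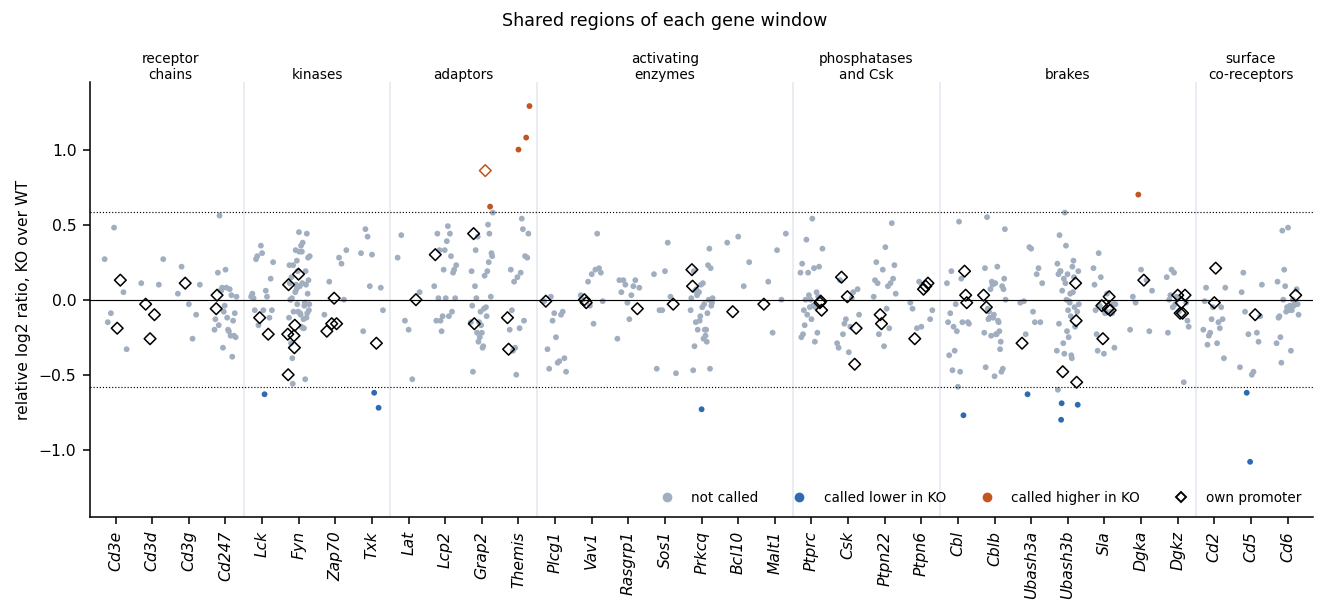
Relative log2 ratio of KO over WT (vertical axis) for each shared region in the window of each gene, in the order of position within the gene's column. Diamonds are the gene's own promoter regions, coloured points are regions called lower or higher, and dotted lines mark 1.5-fold; the points of most genes lie around 0, and the 3 highest are in Themis.

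The 6 regions called higher had low WT pileups, from 22 to 81, while the 11 called lower had WT pileups from 60 to 554. The lists limit what could be called at low pileups: at the genome background, a region 1.5-fold lower in the KO list would need a WT pileup of 31.4 to reach the lowest KO pileup that was called, 14. Of the higher regions, 2 of those in Themis were under that pileup.

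**Figure D3:**
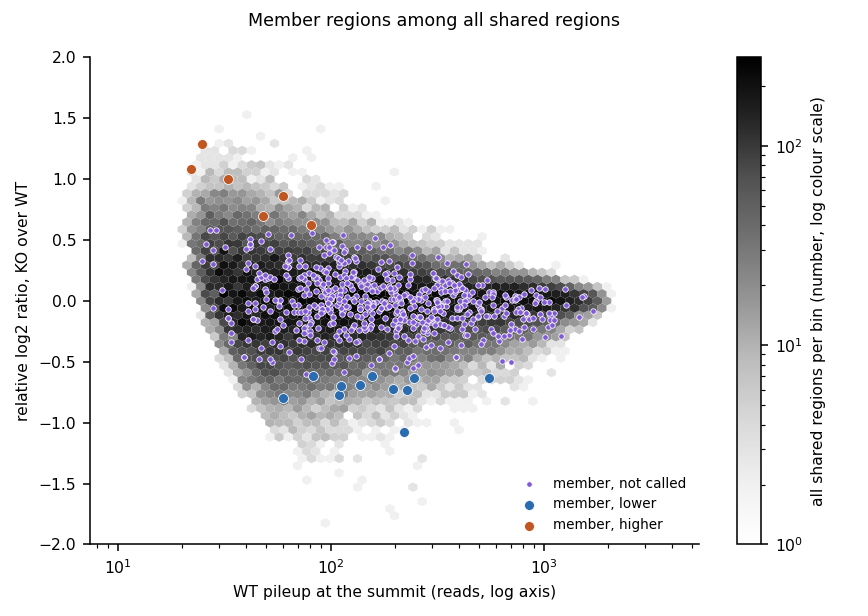
Relative log2 ratio of KO over WT (vertical axis) against the WT pileup in reads (log axis) for the shared regions of the 33 genes, over the density of all 82006 shared regions in grey. The spread of all regions widens toward low pileups, and the called regions of the genes, in blue and orange, lie at its rim.

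Each of the 33 genes had a shared region within 1 kb of a protein-coding start site of its own. The region with the highest WT pileup among these is taken as the main promoter of the gene. For Cd3d, Lck, Csk, Ptpn6, Ubash3b, Sla and Dgkz it lies downstream of the 5′ end, at an internal start site. That of Bcl10 also begins more than 1 kb downstream of the 5′ end, so it counts by a start site other than that end. The WT pileups of the main promoters stood at the 46.0th percentile of all promoter regions or above (Prkcq), with a median at the 76.5th. The relative ratios of the 33 main promoters ran from -0.29 at Txk and Ubash3a to 0.30 at Lcp2, with a median of -0.06, and none was called. Of the 33, 20 were below 0 (60.6%), where 46.0% of the 11101 promoters with a WT pileup of at least 210, the lowest among the 33, were below 0. The interval lay below 0 for 7 of the 33 (21.2%, beside 8.43% of those promoters) and above 0 for 1 (3.03%, beside 6.81%). Without the shift 1 interval lay below 0, that of Txk, and 10 lay above, so the side of 0 on which these promoters lie rests on the shift. The same shift was taken off every region, so it does not alter the gap between the median of the 33 and that of the 11101, which was 0.01. The comparison with the 11101 has 2 limits. Main promoters were picked by their WT pileup, the denominator of the ratio, which can lower the ratio, and the 11101 were not picked within genes. Nor were the sets matched in pileup above 210, and deeper regions have narrower intervals. Over all 76 shared promoter regions of the genes, alternative start sites included, the median was -0.04, where it was 0.02 over all promoters. None of the 76 was called lower (1.24% of all promoters were) and 1 was called higher (1.32%, beside 0.821%).

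**Figure D4:**
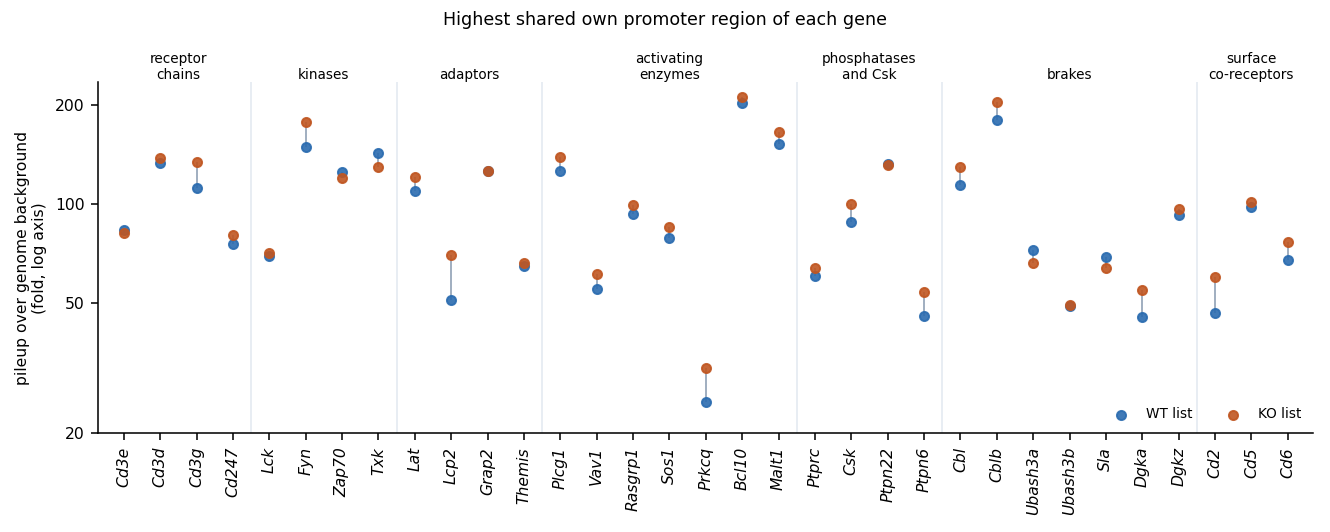
Pileup over genome background (fold, log axis) in the WT list and the KO list at the main promoter of each gene, ordered by role, before the shift to the median. Prkcq had the lowest promoter and Bcl10 the highest, and the lines between both lists are short beside the differences between genes.

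The receptor chains are Cd3e, Cd3d and Cd3g, which form the CD3 dimers, and Cd247, which encodes the zeta chain. Their 42 shared regions had a median relative ratio of -0.05, and none was called. The main Cd3e promoter (chr9:45009141-45010172) had pileups of 705 in the WT list and 413 in the KO list, which are 83.5 and 81.2 times background, and a relative ratio of -0.19 (-0.37 to -0.01). The highest Cd3d region (chr9:44986241-44986787), near an internal start site 4.85 kb downstream of the 5′ end, had 1125 and 704 and gave -0.10 (-0.23 to 0.04). The region at the 5′ start of Cd3d (chr9:44981669-44981898) had 490 and 320 and gave -0.03 (-0.24 to 0.17). The Cd3g promoter at 950 and 684 gave 0.11 (-0.04 to 0.25), and the Cd247 promoter at 638 and 410 gave -0.06 (-0.24 to 0.12). Only the Cd3e interval did not reach 0, and without the shift it did. Cd3e, Cd3d and Cd3g are neighbours on chromosome 9, and their windows share regions. Of the WT regions of this group 16% were WT-only, beside 16.4% of all WT regions. Of its KO regions 6.67% were KO-only, beside 6.61% of all KO regions. The WT-only region with the highest pileup was a Cd3d promoter region (chr9:44982164-44982295) at 182, which lay 274 bp from a KO region. The highest KO-only region was in a Cd3e intron, at a pileup of 66.

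Among the kinases, Lck and Fyn are Src family kinases that phosphorylate the receptor chains, Zap70 is the kinase recruited to them, and Txk is a Tec family kinase. Their 94 shared regions had a median relative ratio of 0.01, with 3 called lower and none higher, where 2.64% of all shared regions were called lower. In an Lck intron, 3.44 kb downstream of the 5′ end of the gene, the region chr4:129570039-129570397 had a pileup of 554 in the WT list and 240 in the KO list, 65.6 and 47.2 times background. Its relative ratio was -0.63 (-0.85 to -0.41), and by the authors' fold -0.54, short of the call. This was the called region with the highest pileup, and it holds the half-site printed above, 21 bp from the summit. Both Lck promoters had ratios closer to 0. The distal one (chr4:129573412-129573787) had 565 and 323, with a ratio of -0.23 (-0.43 to -0.03), and the proximal one (chr4:129558225-129558941) had 585 and 359, with a ratio of -0.12 (-0.32 to 0.07). The distal interval overlapped that of the intronic region and reached 0 without the shift, and the proximal one did not overlap it.

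In Txk, an intronic region 6.17 kb downstream of the 5′ end (chr5:72746382-72746901) had 156 fragments in the WT list and 68 in the KO list, with a ratio of -0.62 (-1.05 to -0.20). A region upstream of Txk, at -4.74 kb from its 5′ end (chr5:72757375-72757599), which overlaps a coding exon of the neighbouring Tec gene, had 197 and 80, with a ratio of -0.72 (-1.11 to -0.34). The Txk promoter itself had 1205 and 657, 143 and 129 times background, with a ratio of -0.29 (-0.43 to -0.16). It was the only main promoter with an interval below 0 also without the shift.

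The Zap70 promoter, with the full CRE 12 bp from its summit, had 1052 and 608, 125 and 120 times background, with a ratio of -0.21 (-0.36 to -0.06), and the interval included 0 without the shift. The main Fyn promoter had 1259 and 902, with a ratio of 0.10 (-0.03 to 0.22). A smaller Fyn promoter region at the 5′ end (chr10:39368832-39369042) had 228 and 108, with a ratio of -0.50 (-0.84 to -0.16), short of 1.5-fold. Fyn held 16 WT-only and 3 KO-only regions. The group as a whole had 19.5% WT-only regions, beside 16.4% of all WT regions, and 2.94% KO-only regions, beside 6.61% of all KO regions. The highest of each were both in Fyn introns, the first with a WT pileup of 134 at 67 bp from a KO region, the second with a KO pileup of 32.

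The adaptors are Lat, the membrane scaffold, Lcp2, which encodes SLP-76, Grap2, which encodes Gads and links the other two, and Themis, which works with Grb2 and Shp1 in thymocytes. Their 83 shared regions had a median relative ratio of 0.09, and 5 were called higher and none lower. Over all shared regions 1.98% were called higher and 2.64% lower. Of all groups it was the one with most of the higher calls, all of them in Themis and Grap2. In Themis all 3 called regions were intronic, far from the start site and weak in both lists. The region 28.3 kb downstream of the 5′ end (chr10:28696562-28696851) had pileups of 33 in the WT list and 44 in the KO list, 3.91 and 8.65 times background, with a ratio of 1.00 (0.31 to 1.69). By the authors' fold it was 0.65 and was not called. The region at 148 kb (chr10:28815884-28816022) had 22 and 31, with a ratio of 1.08 (0.24 to 1.93). A further region at 187 kb (chr10:28854827-28855043) had 25 and 41, with a ratio of 1.29 (0.54 to 2.07), the highest of the 599. At all 3 the KO pileup exceeded the WT pileup although the KO list was the shallower one. The Themis promoter had 546 and 335, 64.7 and 65.8 times background, with a ratio of -0.12 (-0.32 to 0.07).

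In Grap2, a region near an internal start site 50.7 kb downstream of the 5′ end (chr15:80623220-80623369) had 60 and 73, 7.11 and 14.3 times background, with a ratio of 0.86 (0.35 to 1.38). A second one at 67.5 kb (chr15:80639932-80640244) had 81 and 83, with a ratio of 0.62 (0.16 to 1.08) and of 0.32 by the authors' fold, which ended the call. Of the 81 bases around its summit, 76 are marked as repeat in the reference, and the authors kept reads above a threshold of alignment quality. The main Grap2 promoter had 1068 and 641, 126 times background in each list, and a ratio of -0.16 (-0.30 to -0.01). Its interval included 0 without the shift.

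The Lcp2 promoter (chr11:34047039-34047699) had 431 and 354, 51.0 and 69.6 times background, and a ratio of 0.30 (0.09 to 0.50). It was the only main promoter whose interval lay above 0, and 16 of the 22 shared regions of Lcp2 were at or above 0, with a median of 0.19. The 108 other shared regions within 1 Mb of this promoter, those of Lcp2 included, also had a median above 0, at 0.09. The Lat promoter had 918 and 614 and a ratio of 0.00 (-0.15 to 0.15). Of the adaptors' regions 18.4% were WT-only and 5.32% KO-only, beside 16.4% and 6.61% over the whole lists. The highest WT-only region lay just upstream of Grap2, with a pileup of 100 and 95 bp from a KO region, and the highest KO-only region was in an Lcp2 intron, with a pileup of 64 and 52 bp from a WT region.

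Among the activating enzymes, Plcg1 makes the second messengers that release calcium and activate protein kinase C, Vav1 is an exchange factor for small GTPases of the cytoskeleton, and Rasgrp1 and Sos1 are exchange factors for Ras. Prkcq encodes protein kinase C-theta, and Bcl10 and Malt1 form the complex that leads to NF-kB. Their 94 shared regions had a median of -0.01, and 1 was called lower, where 2.64% of all shared regions were. This region in a Prkcq intron (chr2:11205794-11206167), 33.8 kb downstream of the 5′ end, had 228 and 92, 27.0 and 18.1 times background, with a ratio of -0.73 (-1.09 to -0.37), and it holds a half-site 88 bp from the summit. Another Prkcq intron region further downstream, with a full CRE 11 bp from its summit, had 187 and 135 and a ratio of 0.11 (-0.22 to 0.44). The Prkcq promoter was the lowest of the main promoters, at 210 and 161 (0.20, -0.11 to 0.50).

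The Bcl10 region (chr3:145923805-145925020) was the highest, at 1706 and 1076, 202 and 211 times background (-0.08, -0.20 to 0.03). The promoters of Plcg1 (1062 and 705), Vav1 (466 and 311), Rasgrp1 (787 and 505), Sos1 (662 and 433) and Malt1 (1281 and 841) had ratios from -0.06 to 0.00, each with an interval that included 0. Away from its promoter Plcg1 was the gene with the most one-sided values of this group. Of its 14 shared regions 13 were below 0, with a median of -0.20 and a lowest value of -0.48, and none was called. Of the regions of this group 16.8% were WT-only and 10% KO-only, beside 16.4% and 6.61% over the whole lists. Vav1 held 3 of the 11 KO-only regions and had no WT-only region. The highest WT-only and KO-only regions were in Prkcq introns, at pileups of 114 and 69, at 121 bp and 151 bp from a region of the other list.

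Ptprc encodes CD45, a phosphatase that removes the inhibitory phosphate of Lck, and Csk is the kinase that adds it. Ptpn22 partners with Csk, and Ptpn6 encodes the phosphatase Shp1. Their 72 shared regions had a median of -0.01, and none was called. The main promoters of Ptprc (510 and 325, -0.07, -0.27 to 0.13), Csk (744 and 506, 0.02, -0.14 to 0.19) and Ptpn6 (384 and 274, 0.09, -0.14 to 0.32) had intervals that included 0. That of Ptpn22 had 1114 and 665, with a ratio of -0.16 (-0.30 to -0.02), and reached 0 without the shift. A Csk region 1.00 kb downstream of the 5′ end (chr9:57652490-57652703) had 188 and 93, with a ratio of -0.43 (-0.81 to -0.07). A Ptpn22 region with its summit in an intron, and with a full CRE 76 bp from the summit that overlaps an annotated exon, had 80 and 47, with a ratio of -0.19 (-0.74 to 0.35). Of the regions of this group 17.2% were WT-only and 7.14% KO-only, beside 16.4% and 6.61% over the whole lists. The highest WT-only region, at 189, lay in an intron of the gene Rsbn1 downstream of Ptpn22, 288 bp from a KO region, and had the highest WT pileup among the WT-only regions listed by role. The highest KO-only region was in a Ptpn22 intron (chr3:103870461-103870549), at a pileup of 66.

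The brakes are the ubiquitin ligases Cbl and Cblb, the Sts proteins Ubash3a and Ubash3b, which act as phosphatase-like regulators of receptor kinases, the adaptor Sla, which lowers receptor levels, and the diacylglycerol kinases Dgka and Dgkz. Their 159 shared regions had a median of -0.05, and 5 were called lower and 1 higher. Over all shared regions 2.64% were called lower and 1.98% higher. In Ubash3b 3 of 42 shared regions were lower. The first, in an intron 96.7 kb downstream of the 5′ end (chr9:41064921-41065079), had 60 and 23 and a ratio of -0.80 (-1.56 to -0.09). The second, at 93.6 kb (chr9:41067940-41068130), had 138 and 57 and a ratio of -0.69 (-1.17 to -0.24). The third lay upstream of the gene, at -7.07 kb from its 5′ end (chr9:41168603-41168994) with 112 and 46 and a ratio of -0.70 (-1.23 to -0.20). By the authors' fold the first and the second were still called and the third, at -0.49, was not. Of the 81 bases around the third summit, 80 are marked as repeat. The interval of the first included 0 without the shift.

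The Ubash3b intron region with a full CRE, 77.4 kb downstream (chr9:41083732-41084413), had 410 and 214, 48.6 and 42.1 times background. Its ratio of -0.36 (-0.60 to -0.12) fell short of 1.5-fold, and the interval included 0 without the shift. Near the 5′ end of Ubash3b a promoter region (chr9:41160904-41161098) had 201 and 92, with a ratio of -0.55 (-0.92 to -0.18), the lowest of the 76 promoter regions. The main Ubash3b promoter had 414 and 251, with a ratio of -0.14 (-0.37 to 0.09).

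In Ubash3a a region in an intron 2.63 kb downstream of the 5′ end (chr17:31210414-31210632), with a half-site 54 bp from the summit, had 246 and 106, 29.1 and 20.8 times background, with a ratio of -0.63 (-0.98 to -0.30). By the authors' fold it was -0.54 and was not called. Within 1 Mb of this region 14 of 170 other shared regions were called, the highest such share around any of the 17 called regions. The Ubash3a promoter had 612 and 335 and a ratio of -0.29 (-0.49 to -0.09). In Cbl a region in an intron 5.66 kb downstream (chr9:44228156-44228467) had 110 and 43, with a ratio of -0.77 (-1.32 to -0.25). The Cbl promoter had 959 and 654 and a ratio of 0.03 (-0.12 to 0.17). In Dgka a region in an intron 19.1 kb downstream (chr10:128725658-128725973) was called higher, with 48 and 52, 5.68 and 10.2 times background, and a ratio of 0.70 (0.10 to 1.29). The interval of the Cbl region did not overlap that of the Cbl promoter, while for Ubash3a and Dgka the intervals of region and promoter overlapped.

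The main promoters of Cblb (1523 and 1038, 0.03, -0.09 to 0.14), Dgka (381 and 279, 0.13, -0.10 to 0.36) and Dgkz (779 and 491, -0.09, -0.25 to 0.08) had intervals that included 0. The main Sla promoter (581 and 324) had a ratio of -0.26 (-0.46 to -0.06), which reached 0 without the shift. Those of Dgkz and Sla lie at internal start sites. Of the regions of the brakes 17.3% were WT-only and 6.15% KO-only, beside 16.4% and 6.61% over the whole lists. The highest WT-only region lay upstream of Dgka, at -0.631 kb from its 5′ end, with a pileup of 153 and 181 bp from a KO region, and the highest KO-only region was in a Cblb intron, at 75.

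The surface co-receptors are Cd2, an adhesion receptor, and Cd5 and Cd6, scavenger-type receptors that dampen or tune receptor signals. Their 55 shared regions had a median of -0.08, 40 of them were below 0, and 2 were called lower and none higher. Over all shared regions 2.64% were called lower. Both called regions were in Cd5 introns. The one 8.99 kb downstream of the 5′ end (chr19:10729891-10730176) had 222 in the WT list and 70 in the KO list, 26.3 and 13.8 times background, with a ratio of -1.08 (-1.49 to -0.69). It was the lowest of the 599 ratios, it was the only one still called lower at 2-fold, and it kept its call with the authors' fold (-0.80) and without the shift. It holds a half-site 52 bp from the summit. The second one, at 15.2 kb (chr19:10723734-10724125), had 83 and 36, with a ratio of -0.62 (-1.23 to -0.04), and was called neither with the authors' fold nor without the shift.

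The promoter and the highest region of the Cd5 locus did not share this difference. The promoter had 828 and 516, 98.1 and 101 times background, with a ratio of -0.10 (-0.26 to 0.06). The highest region of the window lay upstream, at -8.92 kb (chr19:10747288-10748282) with 1015 and 725, 120 and 142 times background, and a ratio of 0.10 (-0.04 to 0.23). It holds a full CRE, but 551 bp from its summit. Of the 14 shared regions in the Cd5 window 11 were below 0, with a median of -0.23. The promoters of Cd2 (393 and 304, 0.21, -0.01 to 0.43) and Cd6 (571 and 389, 0.03, -0.16 to 0.22) had intervals that included 0, and in the Cd2 window 14 of 17 shared regions were below 0, with a median of -0.13. Of the regions of this group 14.9% were WT-only and 1.64% KO-only, beside 16.4% and 6.61% over the whole lists. The KO-only share was a single Cd5 intron region at a pileup of 72. The highest WT-only region lay downstream of Cd6, with a pileup of 181 and 486 bp from a KO region.

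**Figure D5:**
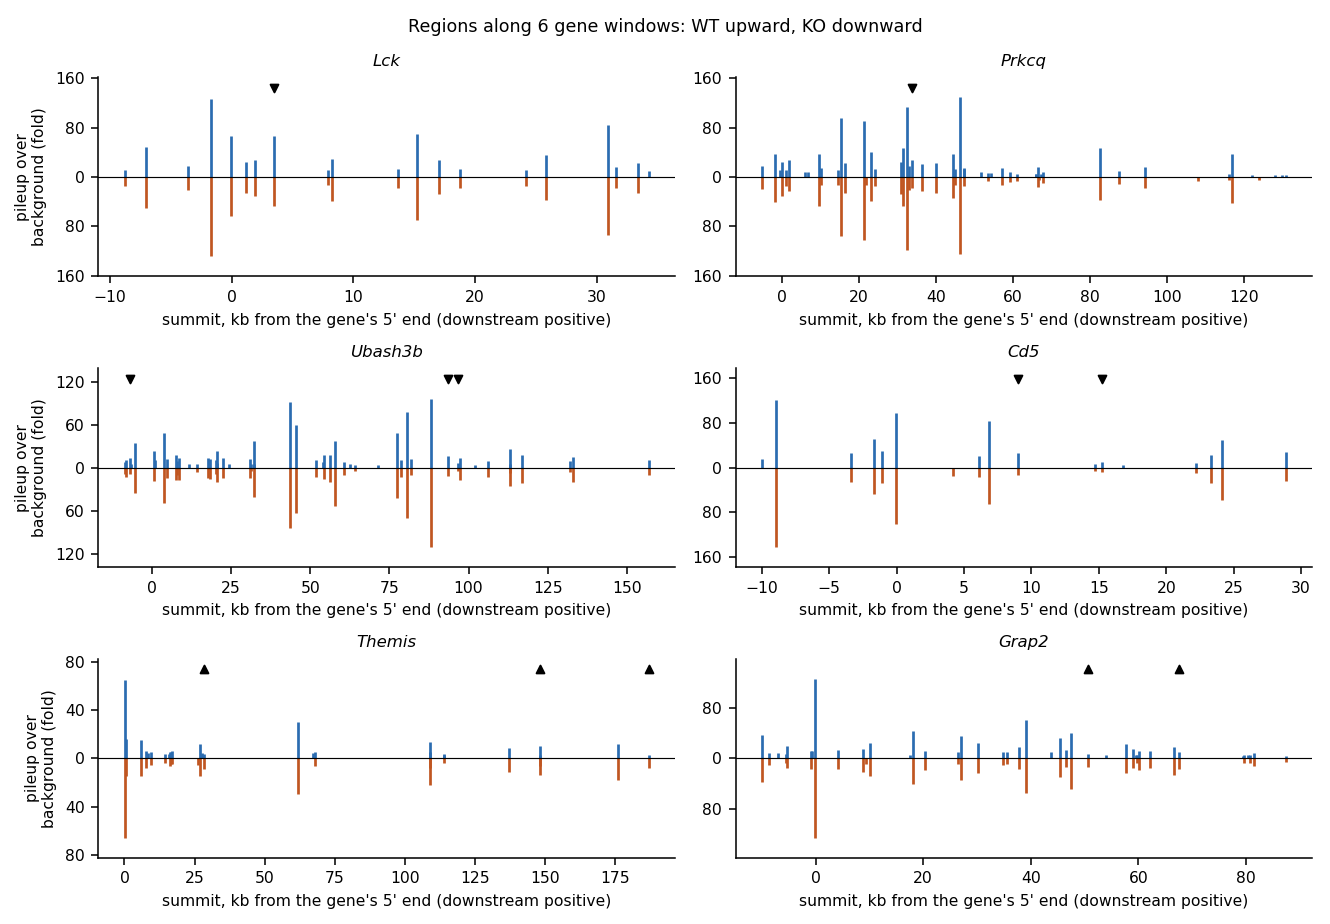
Pileup over genome background (fold) along the windows of Lck, Prkcq, Ubash3b, Cd5, Themis and Grap2, with the WT list upward, the KO list downward and the horizontal axis in kb from the 5′ end of each gene. Triangles mark regions called lower (pointing down) or higher (pointing up); the tallest regions mirror each other in both lists, and the called ones are of middle or low height.

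The called regions did not all have the same words near the summit. Within 100 bp of the summit the half-site TGACG was present at 5 of the 11 lower regions, in Ubash3b outside the region itself, and at none of the 6 higher ones, where over the whole lists 27.9% of 2164 lower regions and 10.8% of 1627 higher ones had it, and 12.4% of all WT regions. The AP-1 word was present at 2 of the 6 higher regions, in Grap2 across the region's edge, and at none of the 11 lower ones, where 29.7% of all higher and 8.87% of all lower regions had it, and 10.4% of all WT regions. With 11 and 6 regions these counts describe the genes and carry no test. The TCF/LEF word CTTTGA was present in 4 regions called lower and in 2 called higher, where 18.2% of all lower and 15.3% of all higher regions had it, and 15.1% of all WT regions. The full CRE was in none of the 17 called regions. The word matches are letters in the reference and do not show that a factor was bound.

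Over all 618 WT regions away from promoters, 10.4% held the half-site near the summit (8.19 to 13.0), where 10.1% of all such regions did, and 0.485% the full CRE, where 0.483% did. Control palindromes made of the bases of the CRE were at 0.0% (TAGCGCTA, beside 0.04% of all such regions) and 0.324% (TGAGCTCA, beside 0.854%). Over all such regions the second control was thus more frequent than the full CRE. The RUNX word TGTGGT was in 29.4% of the 618 regions (26 to 33.2), where 24.7% of all regions away from promoters held it. In whole regions the shares were 32.0% (28.5 to 35.8) and 29.7%, so that the interval then included the share of all such regions. The NFAT word TGGAAA was in 20.1% (17.1 to 23.4), where 17.5% did. The interval of the NFAT share included the share of all such regions, and so did those of the remaining words. These were AP-1 with 10.8% against 11.9%, TCF/LEF with 17.5% against 16.8%, and the E protein sites, searched as CAGCTG and also as the word CAGGTG, with 29.1% against 27.6%. The GATA word AGATAA was in 11.8% of the regions of the genes, and in 10.8% of all regions away from promoters. For ETS, searched as CGGAAG, the shares were 5.66% and 6.34% in the same order. For SP/KLF, searched as the GC box GGGCGG, they were 6.47% and 7.26%. For NRF1, searched as GCGCATGC, they were 0.324% and 0.494%. Words were searched on both strands, and the half-site search also finds the full CRE.

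The 90 WT promoter regions of the genes held several words less often than promoters at large. The half-site was near the summit of 7.78% of them (3.82 to 15.2), where 21.2% of all promoter regions held it. The SP/KLF word was in 26.7% (18.6 to 36.6), where 44.0% did, and the ETS word in 8.89% (4.57 to 16.6), where 20.5% did. Their median GC content was 52.7%, against 60.7% for all promoter regions. The promoter with a full CRE was that of Zap70, 1 of 90 (1.11%), where 2.1% of all promoter regions held it. When the whole region was searched, the half-site was in 22.2% of the 90, and in 38.3% of all promoter regions. The 90 regions were narrower, with a median width of 358 bp against 580 bp, so that search covered less sequence in them.

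The other genes of the pathway, a list of 35 further kinases, adaptors, enzymes and regulators, had 509 shared regions with a median relative ratio of 0.00. Of these, 8 were called lower (1.57%, beside 2.64% of all shared regions) and 10 higher (1.96%, beside 1.98%). Of their WT regions 14.4% were WT-only, beside 16.4% of all WT regions. Of their KO regions 6.48% were KO-only, beside 6.61% of all KO regions. Tec, the Tec family kinase next to Txk, had 4 lower regions, of which 2 are those described for Txk. The 2 others (chr5:72793210-72793539 and chr5:72796148-72796622) had pileups of 73 and 22, and of 83 and 23, with ratios of -1.15 (-1.91 to -0.45) and -1.27 (-2.01 to -0.59). Pdcd4, which encodes an inhibitor of translation, had the only called promoter region, at 314 and 127, with a ratio of -0.73 (-1.03 to -0.42). Single lower regions were found for Pik3cd, the leukocyte PI3 kinase subunit (-0.60), and for Grb2, the adaptor of Sos1 (-0.72), which also had a higher one (0.63). The calcium channel gene Itpr1 had 3 higher regions (0.73 to 1.03) and Tespa1 had 2 (0.67 and 0.77). Nck2 (0.60), Ptpn2 (0.89), Rasa1 (0.61) and Sh2d2a (0.72) had 1 higher region each.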

How the data were processed

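ATAC-seq libraries of splenic Tregs, 3 per group by the labels, were sequenced as 75 bp read pairs. The authors trimmed reads with Trim Galore, aligned them with Bowtie2, filtered them with SAMtools and ran MACS2 for peaks; the sources used here give neither versions nor how libraries were joined. Each deposited list gives a score, a fold (the authors' ratio of pileup to background), and the authors' p and q values as -log10. The labels name mm9, but positions fit GRCm38: 57.5% of 54340 protein-coding start sites had a WT region within 1 kb, against 13.9% after a shift of 100 kb (KO list 56.9% and 12.9%), and 0 regions lay past a chromosome end. The methods name calling without local background, but only 32.6% of WT and 29.6% of KO regions had the genome background.

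Pileup and background were recovered from fold and p to within 0.002 on the -log10 scale for 99.94% of WT and 99.97% of KO regions. Regions of the lists were matched where they shared 1 bp or more; the highest pileup stands for a merged region. Whether fragments were counted alike in both lists is not shown by them and was assumed. Ratios have exact conditional binomial 95% intervals, and shares have Wilson intervals. Reads are not independent molecules, so both cover counting error only. The procedure was tested on simulated pileups. Genes, roles, windows, word lists and call rules were chosen with earlier results of these data known. Named are all 33 genes, their main promoters and called regions, the group-only region with the highest pileup for each role and list, and regions with a full CRE; others (promoter regions next to a main promoter, and genes with one-sided values) were chosen after their values were seen. Pathway genes outside the 33 are named where a shared region was called, and values of some genes are not reported here. Word searches used summits of WT regions, or of the merged region's highest WT peak. Python 3.11.15, pandas 2.3.3, scipy 1.17.1, pysam 0.24.0 and samtools 1.23.1 were used. Alternatives were another overlap, peak threshold, window, promoter width, centring, fold and word search area.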

Additional observations from a re-analysis of the deposited data

How the results depend on the processing

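No paired analysis was possible because each group is 1 pooled list, and no library could be left out for the same reason. Requiring an overlap of 50% of both regions gave 22.2% WT-only and 15.3% KO-only regions (23.8% and 18.8% over the whole lists), and keeping regions with -log10 q of at least 10 gave 3.12% and 0.201% (3.79% and 0.757%). Windows of 0, 5 and 20 kb gave 16.4% to 17.1% WT-only and 5.48% to 6.11% KO-only. Without the shift, the median was 0.11 for promoter regions of the genes and 0.13 for other regions, and the counts were 2 lower and 23 higher, by the construction of the shift. With the authors' fold 7 regions were called lower, 5 of them among the 11, and 4 higher; the cause was not tested. At 2-fold 1 was lower and 2 were higher. Centring on the promoter class or chromosome kept all 17 calls, and regions with 1 summit in each list within 100 bp gave 10 lower and 6 higher. All 17 called regions kept their sign with the authors' fold and under the 3 other centrings. The CRE half-site share away from promoters was 12.9% in whole regions; of the 25 other word shares, 13 moved out of their interval there, and the RUNX share away from promoters was then no longer apart from that of all such regions (32.0% and 29.7%). Depth limits weak regions most, and the absence of lists per library leaves the spread between mice unknown.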
